A study of Homo sapiens with 10 samples.

Results

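Cadherins and protocadherins are calcium-dependent adhesion receptors that share repeated extracellular cadherin domains. The members described here were all rows of the count table with a numbered CDH, PCDH, FAT, DCHS, DSC or DSG symbol. The clustered PCDH families were included, and PCDH11X and PCDH11Y were not. These were 100 of 22626 rows. They were measured by RNA sequencing of ARPE-19 cells, an established human line derived from the retinal pigment epithelium (RPE). The control group (MG) was kept in 5.5 mM glucose with 32 mM mannitol, a sugar alcohol added to match the osmotic load, and the high glucose group (HG) in 37.5 mM glucose, both for 48 h, with 5 libraries each. The comparison asks how an excess of glucose, used as an in vitro model of diabetes, changes the RNA of these cells. All libraries come from the same line, and the labels do not say that they come from separate cultures, so p-values measure the spread between these libraries, which may be technical.

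Classical cadherins form the adherens junctions that hold epithelial cells together, and their cytoplasmic tails bind catenins, which link them to actin. Type I members, among them E-cadherin (CDH1), N-cadherin (CDH2), P-cadherin (CDH3) and R-cadherin (CDH4), and the related type II members differ in the domain that makes the adhesive contact. Desmocollins and desmogleins are the cadherins of desmosomes, where plakoglobin and plakins couple them to intermediate filaments. FAT and DCHS proteins are very large cadherins known for planar cell polarity and growth control. The clustered protocadherins lie in 3 neighbouring gene arrays. In the PCDHA and PCDHG arrays, each transcript starts from its own variable exon and is spliced to 3' exons shared by the whole array. In the native RPE, P-cadherin is a known junctional cadherin, and its loss in people causes a macular dystrophy.

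The shared exons are shown because they decide what a row of the table can mean. On chromosome 5 of GRCh38 (GENCODE 29, plus strand), the 59-base shared exon of the alpha array lies at chr5:140978949-140979007 and belongs to 15 of 15 alpha genes. The matching exon of the gamma array lies at chr5:141494807-141494865 and belongs to 22 of 22 gamma genes. In the lines that follow, capitals mark the positions at which both exons have the same base, 39 of 59 (66.1%).
PCDHA shared exon: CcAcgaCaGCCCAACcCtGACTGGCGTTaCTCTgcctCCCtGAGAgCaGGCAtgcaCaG
PCDHG shared exon: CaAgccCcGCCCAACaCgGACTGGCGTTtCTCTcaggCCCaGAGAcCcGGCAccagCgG
A read inside such an exon comes from the array but names no member of it. Exonic bases shared with other genes made up between 27.57% and 64.39% of each gamma gene and between 21.32% and 63.13% of each alpha gene. In the beta array, whose genes have no such shared exons, the range was 0 to 24.94%.

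Total counts were between 32448991 and 45864176 per library. Counts are given as CPM, the count scaled to 1000000 of the normalised library size, and levels between genes are compared only as the deposited FPKM, which are divided by transcript length. Control libraries carry the replicate numbers of the labels, and high glucose libraries are named by their deposited column (HG_1 to HG_5), since their letters could not be tied to columns. HG_1 and MG_2 stood apart: their counts rose by 0.175 and 0.158 on the log2 scale for each 10 points of GC content of a gene, against slopes between -0.0835 and -0.00598 in the other 8 libraries. For each doubling of transcript length, HG_1 and MG_2 changed by -0.156 and -0.113 on the log2 scale, against -0.00425 to 0.0665 in the other 8. Key results are therefore also given without HG_1 and MG_2. Among markers fixed for the cell type, keratins KRT8 and KRT18 were abundant and the RPE factors OTX2 and MITF were present, while RPE65 had 0 to 6 counts per library and TTR 0. BEST1, a chloride channel gene of the RPE, had 8707 and 18223 counts in MG_1 and MG_4 and between 24 and 300 in the other libraries. The summed FPKM of the RPE list was 1544 to 1921 in the control group and 988 to 1295 in high glucose, with 3 of 9 tested markers lower (KRT8, KRT18, PMEL) and 0 higher by edgeR, 7 at an unadjusted p under 0.05, and 5 called by DESeq2. Of the endothelial list 1 of 2 tested genes (KDR) was lower, of the leukocyte list 1 of 2 (CD68) was higher and CSF1R had a log2 fold change of -0.43 (edgeR adjusted p = 0.0502, called by DESeq2 and limma), with PTPRC at 0 to 4 counts and CD3E at 0, and of the photoreceptor list 0 of 2 were called by edgeR (1 at an unadjusted p under 0.05) or DESeq2, with CRX at 0. Over all tested rows, edgeR called 7.8% lower and 7.62% higher. The part of these markers in the results was not tested.

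ARPE-19 cells used few cadherins at a high level. CDH2 was the most abundant member, at 98.0 FPKM over all libraries, followed by CDH11 (32.6 FPKM), a type II cadherin known from mesenchymal cells, FAT1 (27.4 FPKM), desmoglein 2 (DSG2, 23.2 FPKM), CDH24 (11.1 FPKM), another type II cadherin, and PCDHGB4 (9.55 FPKM). CDH2 stood above the rest in every library, whereas the FPKM ranges of CDH11, FAT1 and DSG2 over the libraries overlapped. Of the 100 members, 16 were above 1 FPKM in every library. There were 9 members at 0 in all 10 libraries, including CDH5, the endothelial VE-cadherin (named after its values were seen). A count of 0 allows up to 3 counts, between 0.0668 and 0.0912 CPM in these libraries, and this limit covers counting error only. Whether the counting used strand is not given, and overlapping genes take small parts of some members: 2.75% of the exonic bases of CDH2 and 1.26% of CDH13 overlap an antisense gene, and 1.9% of CDH11 a gene on the same strand.

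**Figure D1:**
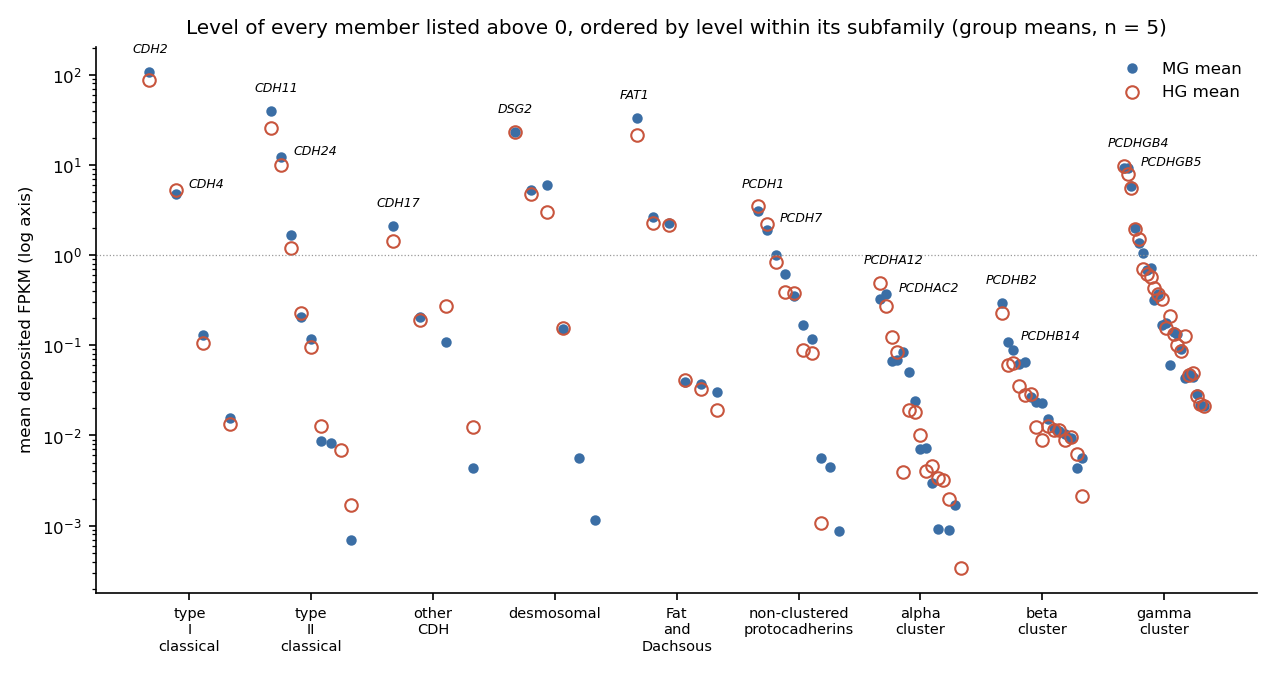
Mean deposited FPKM (log axis) of each member listed above 0, as filled points for the control group and open circles for high glucose (5 libraries each), arranged by subfamily and, within it, by level. CDH2 leads at 108 FPKM in the control group, and the alpha and beta arrays lie below 1 FPKM throughout.

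A filter on low counts left 49 of the 100 members for testing and 51 without a test. Of these 49, 38 reached the filter's level (0.249 CPM) in all 10 libraries, 6 in all libraries of the high glucose group only and 2 in all libraries of the control group only. With high glucose, 5 members fell and 2 rose (edgeR quasi-likelihood test, Benjamini-Hochberg adjusted p under 0.05 over 14936 rows). CDH2, CDH11, CDH24, FAT1 and DSC2 fell, and these include CDH2, CDH11 and FAT1, the 3 most abundant members by mean FPKM over all libraries, although in high glucose the mean of DSG2 (23.1 FPKM) was above that of FAT1 (21.7 FPKM). CDH13 and PCDH7 rose. In bulk RNA, fewer cells carrying a transcript and less of it per cell cannot be told apart. Without HG_1 and MG_2, 8 members were lower, the same 5 among them, and 2 higher, PCDH7 and CDH4. The share of all rows called in that fit is not given here. In the fit with all libraries, the 5 lower members were 10.2% of those tested, where 7.8% of all tested rows were called lower. The 2 higher members were 4.08%, where 7.62% of all tested rows were called higher. Lower calls with a fold change above 1.5 covered 2 members (4.08%), CDH11 and DSC2, against 2.02% of all rows. In CPM, all high glucose libraries were lower than all control libraries for 7 members (14.3%; 6.91% of all rows) and higher for 2 (4.08%; 6.74% of all rows). The median log2 fold change of the 49 tested members was -0.196, beside 0.00132 for all tested rows, and 35 of the 49 (71.4%) were below 0, beside 49.8% of all rows. The tested members were longer (median 4929 against 3429 bases) and lower in GC content (median 46.5% against 48.5%) than all tested rows. The part of length and GC content in these medians was not tested.

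**Figure D2:**
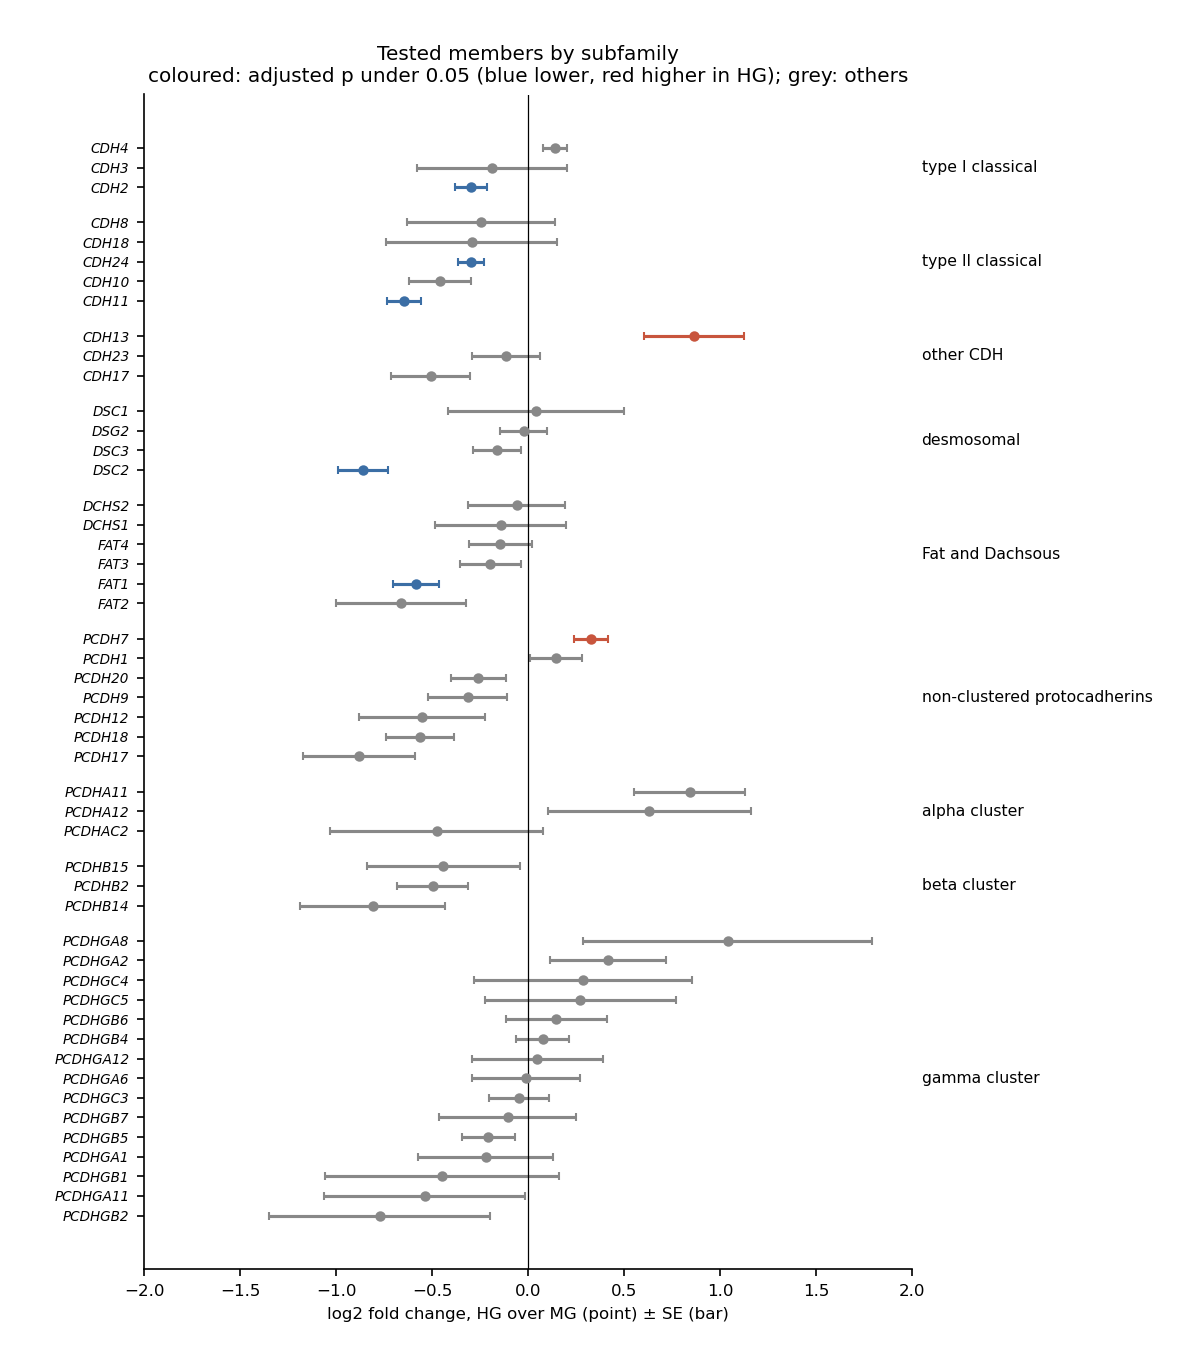
Log2 fold change (high glucose over control) of the 49 tested members, with its standard error as a bar, grouped by subfamily. Blue points are the 5 members called lower and red points the 2 called higher; the rows of the gamma array scatter on both sides of 0 with wide bars.

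Among the type I cadherins, CDH2 fell and CDH4 did not pass the test. N-cadherin (CDH2, ENSG00000170558, chr18:27950966-28177446, minus strand) was at 543, 402, 451, 462 and 479 CPM in MG_1 to MG_5. It was at 327, 397, 395, 392 and 392 CPM in HG_1 to HG_5. The highest high glucose library lay just below the lowest control library, MG_2, and HG_1 lay apart below the other 4. The log2 fold change was -0.30 (SE 0.0813, edgeR adjusted p = 0.0314), a 1.23-fold lower level, from 467 ± 51.1 to 380 ± 30.1 CPM (SD, n = 5 each). Without HG_1 and MG_2 it was -0.30 (edgeR adjusted p = 0.00377). When libraries were left out in turn, the call was lost in 8 of 10 fits, with log2 fold changes between -0.34 and -0.24 and adjusted p up to 0.072. In the deposited FPKM the groups overlapped, at 90.3 to 125 FPKM against 72.8 to 93.2 FPKM (limma adjusted p = 0.0685 on log2(FPKM + 1)).

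CDH4, which encodes R-cadherin, known from the developing retina, was at 34.5, 31.7, 34.7, 34.1 and 35.7 CPM in the control group and at 33.6, 38.3, 38.1, 41.1 and 37.2 CPM in high glucose. Only HG_1 fell within the control range. Its log2 fold change was 0.14 (SE 0.0604, edgeR adjusted p = 0.154), and without HG_1 and MG_2 it was 0.15 (edgeR adjusted p = 0.0204). CDH3, the P-cadherin of the native RPE, had between 9 and 48 counts per library and a log2 fold change of -0.19 (SE 0.391, edgeR adjusted p = 0.815). CDH1 had 0 to 8 counts per library and did not reach the filter.

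The balance of CDH2 and CDH1 is a common measure of epithelial and mesenchymal states. The log2 ratio of their counts (0.5 added to each) was 12.49 ± 1.47 in the control group and 12.79 ± 1.75 in high glucose (SD, n = 5 each). The difference of 0.304 was smaller than the spread within either group (two-sided exact permutation test over 252 arrangements, p = 0.825). It changed sign without HG_1 (-0.152) or without HG_4 (-0.161). The precision of this ratio is limited by CDH1, at 8 counts or fewer in every library. Of the factors that act on the CDH1 gene, 5 of 11 were tested, 2 were lower and 0 higher. Over all tested rows, 7.8% were called lower and 7.62% higher. TCF3, an E-box-binding repressor of CDH1, had a log2 fold change of -0.26 (SE 0.0673, edgeR adjusted p = 0.0258), although the call was lost in 6 of 10 fits with 1 library left out. SNAI1, outside the naming rule at 0.93 FPKM in the control group, had a log2 fold change of -0.97 (SE 0.280, edgeR adjusted p = 0.0402). The repressor genes ZEB1, ZEB2 and TWIST1 were at 2.75, 10.3 and 10.4 FPKM in the control group, with log2 fold changes of -0.05, 0.04 and -0.00091. GRHL2 and OVOL2, which are known to keep epithelial cells epithelial, had 0 counts in every library.

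Of the type II cadherins, 2 of 5 tested fell, where 7.8% of all tested rows fell. CDH11 had the lowest adjusted p of all members. CDH11 (ENSG00000140937, chr16:64943753-65126112, minus strand) was at 328, 240, 282, 276 and 280 CPM in the control group. It was at 153, 196, 184, 173 and 192 CPM in high glucose. All high glucose libraries were below all control libraries. The log2 fold change was -0.65 (SE 0.087, edgeR adjusted p = 0.000836), a 1.57-fold lower level, from 281 ± 31.1 to 180 ± 17.0 CPM (SD, n = 5 each). It was -0.64 without HG_1 and MG_2 (edgeR adjusted p = 0.00022). It stayed between -0.70 and -0.59 when any library was left out and was called in all 9 other settings tried.

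CDH24 (ENSG00000139880, chr14:23047062-23057538, minus strand) was at 47.4, 48.7, 43.0, 43.8 and 42.6 CPM in the control group and at 42.0, 34.4, 35.9, 35.0 and 36.2 CPM in high glucose. HG_1 was the highest of its group and came close to the lowest control library, MG_5. For CDH24 the log2 fold change was -0.30 (SE 0.0673, edgeR adjusted p = 0.0129), and without HG_1 and MG_2 it was -0.32 (edgeR adjusted p = 0.000862). CDH10, a type II cadherin known from the brain, was at 4.17 to 8.25 CPM in the control group and at 3.84 to 4.84 CPM in high glucose, with a log2 fold change of -0.46 (SE 0.162, edgeR adjusted p = 0.083). Without HG_1 and MG_2 its adjusted p was 0.0142.

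Because the type I and type II cadherins bind the same catenins, their FPKM can be read as shares of a common total. CDH2 held 63.6% to 65.6% of the classical cadherin FPKM in control libraries and 66.0% to 68.5% in high glucose libraries. CDH11 held 23.3% to 24.4% and 18.7% to 20.5%. CDH4 held 2.49% to 3.01% and 3.83% to 4.32%. With this total, the ranges did not overlap for any of the 3 genes. As a share of all members, CDH2 held 37.1% to 39.2% in control libraries and 37.5% to 39.1% in high glucose libraries, which overlap, whereas CDH11 (13.5% to 14.6% and 10.5% to 11.8%) and CDH4 (1.5% to 1.8% and 2.14% to 2.43%) did not. CDH24 held 6.64% to 9.04% and 6.89% to 9.88%, with MG_2 and HG_1 the highest of their groups. The shares are RNA proportions and show unequal change among these genes, not which of them changed in amount.

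**Figure D3:**
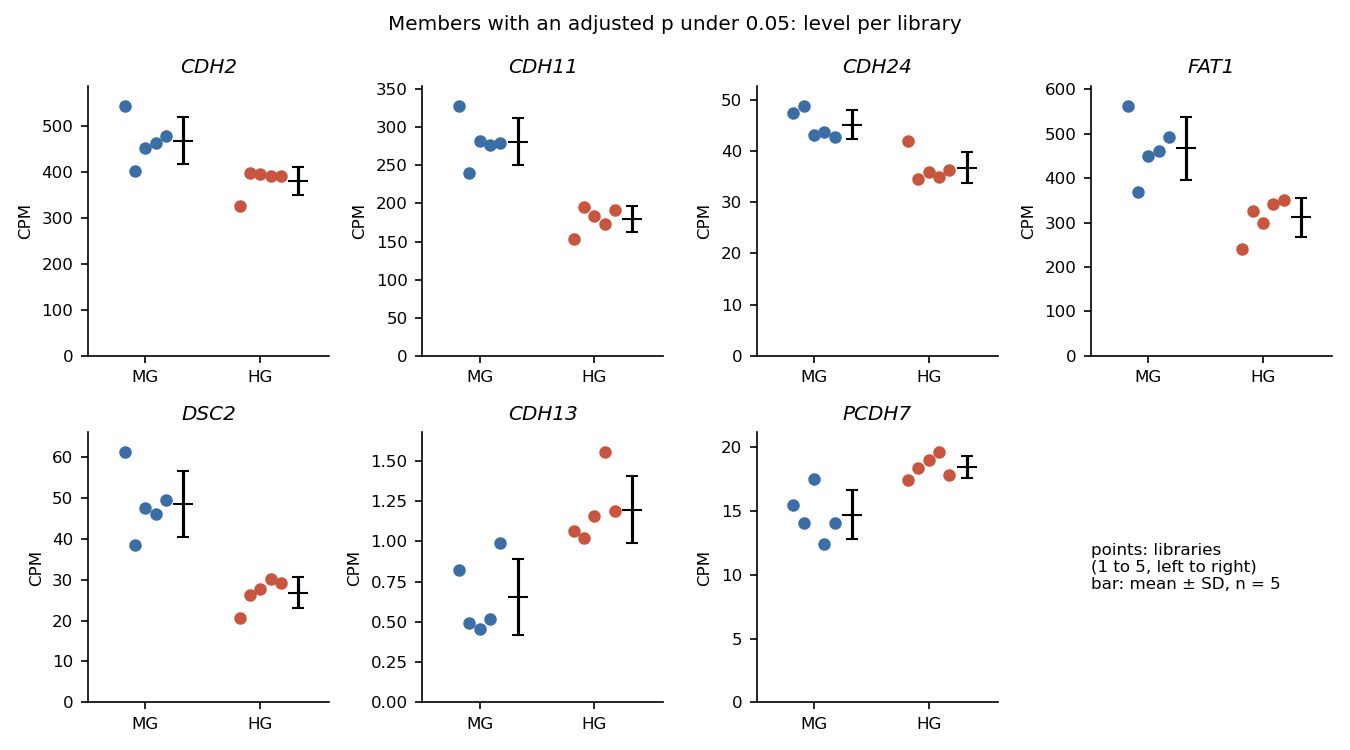
CPM of the 7 members that passed the test, in each library (points, in the order of library numbers) with the group mean and SD (n = 5) beside them; every axis starts at 0. The groups do not overlap for CDH2, CDH11, CDH24, FAT1, DSC2 and CDH13, and MG_3 reaches into the high glucose range for PCDH7.

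Of the cytoplasmic partners of cadherins, 9 of 11 listed genes were tested, 2 were lower and 0 higher. Over all tested rows, 7.8% were called lower and 7.62% higher. JUP, which encodes plakoglobin, the catenin of both desmosomes and adherens junctions, had a log2 fold change of -0.55 (SE 0.0838, edgeR adjusted p = 0.00149), from 7.15 to 4.89 FPKM. CTNND2, a delta-catenin best known from neurons, had a log2 fold change of -0.69 (SE 0.107, edgeR adjusted p = 0.00163), from 2.52 to 1.52 FPKM. For both, all high glucose libraries were lower in CPM than all control libraries, as for 6.91% of all tested rows. The core catenins did not pass the test, with log2 fold changes of -0.05 for CTNNA1 (SE 0.036), -0.02 for CTNNB1 (SE 0.09) and -0.18 for CTNND1 (SE 0.072, edgeR adjusted p = 0.117). CTNNA1 alone was at 109 FPKM in the control group. Of 9 proteases and secretase subunits that cleave cadherins or their precursors, 9 were tested, 0 were called by edgeR (1 at an unadjusted p under 0.05), 1 by DESeq2 and 0 by limma on log2(FPKM + 1). The closest was ADAM10, the main sheddase of N-cadherin, with a log2 fold change of -0.39 (SE 0.128, edgeR adjusted p = 0.0631).

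In the desmosomal family 1 of 4 tested members fell, where 7.8% of all tested rows fell. Desmocollin 2 (DSC2, ENSG00000134755, chr18:31058840-31102522, minus strand), the desmocollin of simple epithelia, was at 61.0, 38.6, 47.5, 45.9 and 49.5 CPM in the control group. It was at 20.5, 26.2, 27.8, 30.1 and 29.2 CPM in high glucose. No high glucose library reached the lowest control library, MG_2. Its log2 fold change was -0.86 (SE 0.13, edgeR adjusted p = 0.00151), a 1.81-fold lower level. It was -0.85 without HG_1 and MG_2 (edgeR adjusted p = 0.000324). The deposited FPKM of DSC2 spread more widely than the counts, from 2.82 to 10.1 FPKM in the control group and from 1.48 to 4.53 FPKM in high glucose, so the groups overlapped on that scale. The CPM for each unit of FPKM varied 2.21-fold between libraries for DSC2, whereas for 16 of the 20 members with at least 100 counts in every library this ratio varied by less than 1.3-fold. On log2(FPKM + 1) the change of DSC2 was -0.76 (limma adjusted p = 0.143).

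Its desmosomal neighbours gave no call. DSG2, the desmoglein of simple epithelia and the most abundant desmosomal cadherin here, was at 148, 111, 154, 147 and 164 CPM in the control group and at 106, 149, 143, 157 and 158 CPM in high glucose. MG_2 and HG_1 were the lowest of their groups, and the other libraries mixed. Its log2 fold change was -0.02 (SE 0.124, edgeR adjusted p = 0.934). DSC3 had a log2 fold change of -0.16 (SE 0.127, edgeR adjusted p = 0.46), with HG_1 at 27.8 CPM and the other high glucose libraries at 38.6 to 39.7 CPM. Without HG_1 and MG_2 it was also -0.16, with an adjusted p of 0.0268. DSC1 had 9 to 45 counts per library, and DSG1, DSG3 and DSG4, the desmogleins of stratified epithelia, had 0 counts in at least 9 of 10 libraries.

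Of the FAT and DCHS family, FAT1 fell and no other member passed the test. FAT1 (ENSG00000083857, chr4:186587783-186726722, minus strand) was at 563, 368, 450, 461 and 493 CPM in the control group. It was at 241, 326, 300, 342 and 350 CPM in high glucose. HG_1 was the lowest library and MG_2 the lowest control, and the groups did not overlap. The log2 fold change was -0.58 (SE 0.122, edgeR adjusted p = 0.00888), from 467 ± 70.5 to 312 ± 44.2 CPM (SD, n = 5 each), and it ranged from -0.66 to -0.50 with 1 library left out. It was -0.58 without HG_1 and MG_2 (edgeR adjusted p = 0.000825). In every control library FAT1 was above DSG2 in FPKM, and in high glucose it was above in 1 of 5, HG_1, at 16.9 against 16.8 FPKM. FAT3 and FAT4 were at 2.62 and 2.25 FPKM in the control group, with log2 fold changes of -0.20 (SE 0.16, edgeR adjusted p = 0.483) and -0.14 (SE 0.164, edgeR adjusted p = 0.633). FAT2, DCHS1 and DCHS2 were below 0.05 FPKM in both groups. A test of the difference between FAT1 and its relatives was not made.

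CDH13 and PCDH7 rose. CDH13 (ENSG00000140945, chr16:82626803-83800640, plus strand) encodes T-cadherin, which lacks the cytoplasmic tail, is held in the membrane by a lipid anchor and binds adiponectin. It had 27, 22, 19, 17 and 44 counts in the control libraries and 41, 42, 52, 51 and 39 counts in the high glucose libraries. In CPM these were 0.457 to 0.988 in the control group and 1.02 to 1.55 in high glucose, without overlap. Its log2 fold change was 0.86 (SE 0.262, edgeR adjusted p = 0.0479), a 1.82-fold higher level. The call rested on few counts. Without HG_1 and MG_2 the log2 fold change was 0.82 (edgeR adjusted p = 0.0756). The call was lost in 9 of 10 fits with 1 library left out, at log2 fold changes between 0.755 and 1.065. Without a filter on low counts the call was lost too. The mean FPKM of CDH13 was 0.108 in the control group and 0.273 in high glucose. On log2(FPKM + 1) the change of CDH13 was 0.20 (limma adjusted p = 0.132). There the added 1 exceeds every FPKM value of CDH13 and shrinks its change. CDH13 was not called by limma on log2(FPKM + 0.1) either.

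PCDH7 (ENSG00000169851, chr4:30720415-31146805, plus strand) is a non-clustered protocadherin. It was at 15.5, 14.1, 17.6, 12.4 and 14.0 CPM in the control group and at 17.5, 18.4, 19.1, 19.6 and 17.9 CPM in high glucose. MG_3 lay within the high glucose range. The log2 fold change was 0.33 (SE 0.0901, edgeR adjusted p = 0.0318), a 1.25-fold higher level. Without HG_1 and MG_2 it was 0.33 (edgeR adjusted p = 0.0402), and the call was lost in 8 of 10 fits with 1 library left out. On log2(FPKM + 1) the change of PCDH7 was 0.15 (limma adjusted p = 0.249), and the FPKM ranges overlapped, at 1.61 to 2.23 FPKM in the control group and 1.95 to 2.53 FPKM in high glucose. The CPM for each unit of FPKM varied 1.6-fold between libraries for this gene. PCDH1, the non-clustered protocadherin with the highest FPKM (3.08 in the control group and 3.47 in high glucose), had a log2 fold change of 0.15 (SE 0.135, edgeR adjusted p = 0.537). PCDH20 had a log2 fold change of -0.26 (SE 0.144, edgeR adjusted p = 0.271), but 95.79% of its exonic bases are shared with an annotated gene on the same strand (AL592490.1), so its reads are uncertain.

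PCDH17 and PCDH18, chosen after their values were seen because they lay near the threshold, are non-clustered protocadherins known from neural tissue. PCDH18 was at 2.61 to 4.38 CPM in the control group and 2.01 to 3.05 CPM in high glucose, with a log2 fold change of -0.56 (SE 0.177, edgeR adjusted p = 0.0551). PCDH17 was at 1.18 to 2.09 CPM and 0.436 to 1.14 CPM, with a log2 fold change of -0.88 (SE 0.292, edgeR adjusted p = 0.0671), and its groups did not overlap, while 7.85% of its exonic bases overlap an antisense gene. CDH17, the liver-intestine cadherin, was at 6.39 to 10.97 CPM and 3.46 to 7.45 CPM, with a log2 fold change of -0.51 (SE 0.208, edgeR adjusted p = 0.134). CDH23, a cadherin of sensory hair bundles, had a log2 fold change of -0.12 (SE 0.178, edgeR adjusted p = 0.741).

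**Figure D4:**
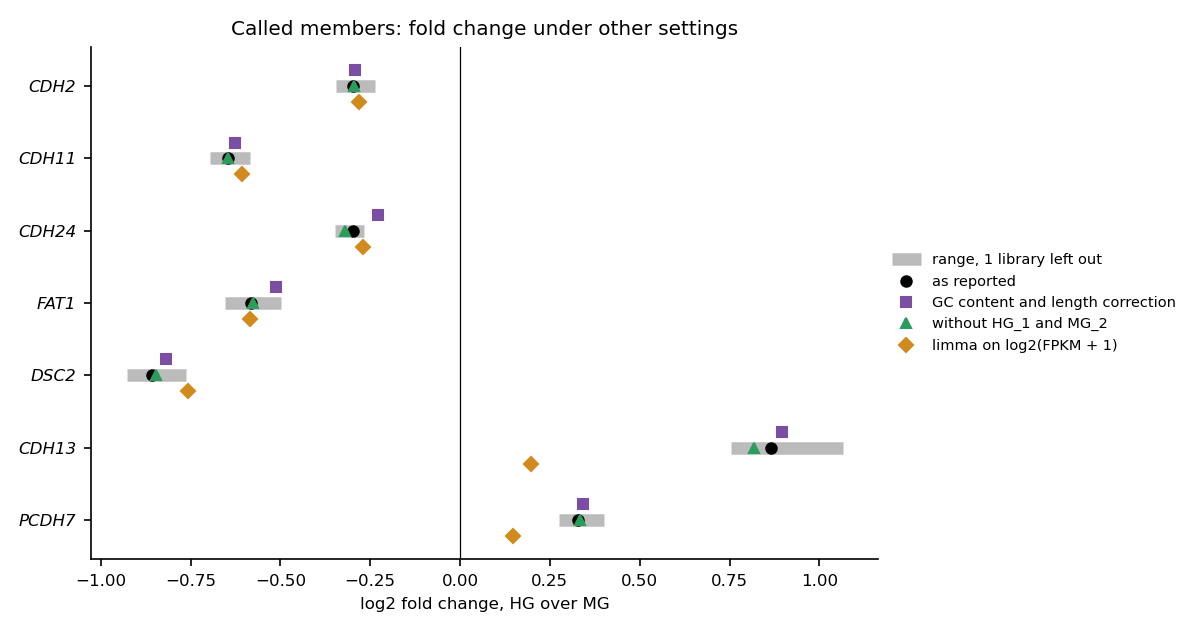
Log2 fold changes (high glucose over control) of the 7 members that passed the test, as reported (black) and under a correction for GC content and length (squares), without HG_1 and MG_2 (triangles) and from limma on log2(FPKM + 1) (diamonds); grey bars span the fits with 1 library left out. The bars of the 5 lower members stay below 0 and those of CDH13 and PCDH7 above it. CDH13 is at 0.20 on log2(FPKM + 1), where the added 1 exceeds all of its FPKM values and shrinks its change.

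Of the 53 rows of the clustered protocadherins, 21 were tested, and 0 were called by edgeR, DESeq2 or limma on log2(FPKM + 1), with 2 (PCDHA11 and PCDHB2) at an unadjusted p under 0.05 in edgeR. The gamma array was by far the most abundant. PCDHGB4, PCDHGB5 and PCDHGC3 were at 9.26, 9.12 and 5.82 FPKM in the control group and at 9.83, 7.96 and 5.48 FPKM in high glucose. Their log2 fold changes were 0.08 (SE 0.138), -0.21 (SE 0.139) and -0.05 (SE 0.157), with edgeR adjusted p of 0.779, 0.38 and 0.888. With 22 genes ending in the same exons, the sum over the array does not depend on how shared reads were divided among its rows, if each read was counted once. That sum was 163, 160, 158, 156 and 160 CPM in MG_1 to MG_5 and 160, 161, 152, 153 and 149 CPM in HG_1 to HG_5. Its mean was 159 ± 2.48 CPM in the control group and 155 ± 5.17 CPM in high glucose (SD, n = 5 each).

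The rows of the gamma array varied far more than their sum. A sum can vary less than its parts by construction, and the spread expected of independent rows was not computed. The coefficient of variation, taken within each group and averaged over both groups, was 2.45% for the sum. It was between 16.2% and 97.6%, with a median of 41.9%, for the 16 gamma rows with a mean of at least 10 counts. PCDHGA12 and PCDHGB2 are examples chosen after their values were seen. PCDHGA12 had 266, 578, 419, 107 and 677 counts in MG_1 to MG_5. PCDHGB2 had 24, 293, 240, 38 and 55 counts in HG_1 to HG_5. Among rows with a mean of 10 to 500 counts, the median coefficient of variation was 57.4% for 17 alpha and gamma rows. It was 36.9% for 3 beta rows, 29.1% for 16 members outside the arrays and 20.4% for 5545 tested rows of the whole table. The sets were not matched for count within this range. These are descriptions of the spread within groups, and whether cells or read assignment differed between libraries was not tested.

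**Figure D5:**
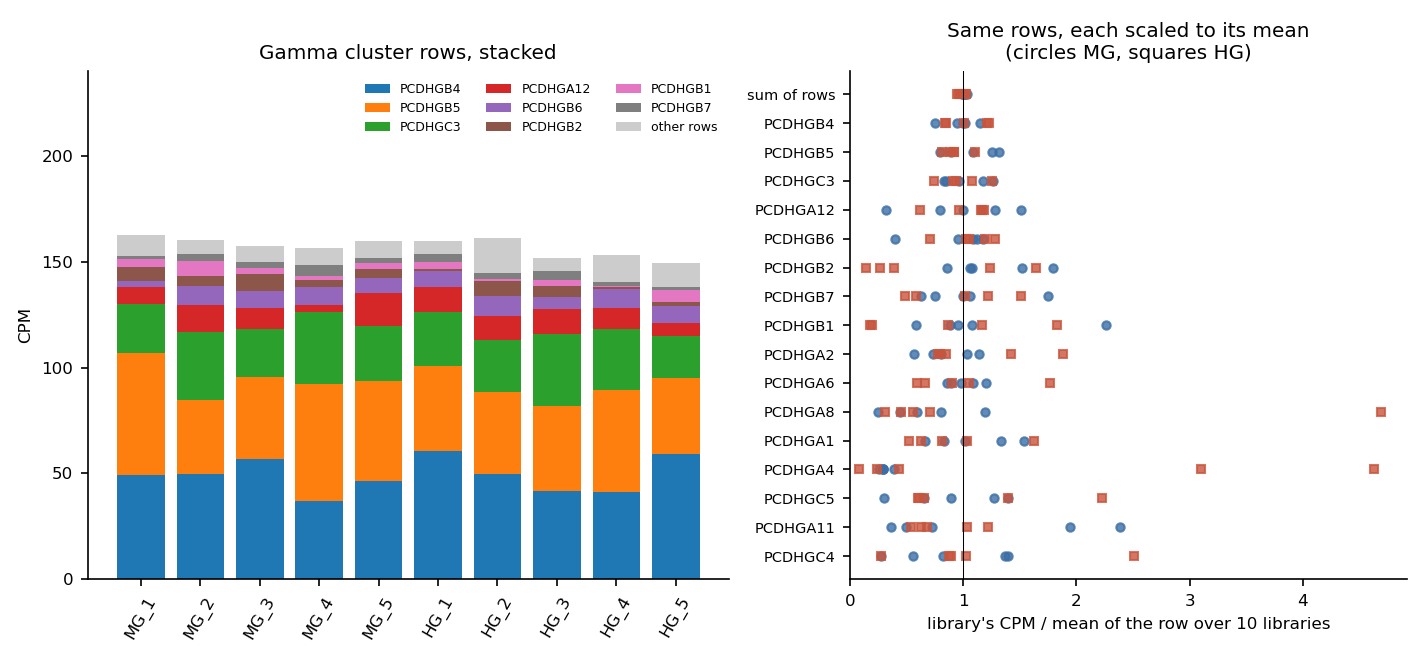
Left, CPM of the gamma array rows stacked for each library, with the 8 rows of highest mean count in colour and the rest in grey. Right, the sum and each row with a mean of at least 10 counts, scaled to its own mean over 10 libraries (circles control, squares high glucose); the sum stays close to 1 while PCDHGA8 and PCDHGA4 exceed 4 in a high glucose library.

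In some rows 1 library held a large part of the counts, and the rows named here were chosen after their values were seen. PCDHGA8 had 324 counts in HG_2 and 17 to 66 in the others. PCDHGA4 had 94 and 63 counts in HG_4 and HG_5 and 2 to 12 in the others. PCDHA3 had 82 counts in MG_4 and 0 to 4 in the others, PCDHA13 had 89 counts in HG_1 and 0 to 30 in the others, and PCDHA9 had 46 counts in MG_3 and 3 to 8 in the others. Of 30 clustered rows with at least 50 counts in all, 5 had over 30% of their CPM in 1 library. Among these, PCDHA3 reached 50 counts only through MG_4. Of 29 other members with that many counts, 0 did, and their top library held between 11.4% and 22.2%.

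The alpha array was low, with a summed level of 5.78 ± 0.712 CPM in the control group and 5.90 ± 0.694 CPM in high glucose (SD, n = 5 each). PCDHA12 and PCDHAC2, its leading rows, had log2 fold changes of 0.63 (SE 0.529, edgeR adjusted p = 0.493) and -0.48 (SE 0.555, edgeR adjusted p = 0.643). PCDHA11 had 5 to 14 counts per control library and 13 to 24 per high glucose library, without overlap in CPM, and a log2 fold change of 0.84 (SE 0.288, edgeR adjusted p = 0.0749). It reached the filter's level in all libraries of the high glucose group only, so its test was possible because that group was high.

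The beta array was lower still, and its sum did not overlap between the groups. The summed beta counts were 3.70, 3.70, 3.37, 3.27 and 3.28 CPM in MG_1 to MG_5 and 2.10, 2.96, 2.39, 1.82 and 2.34 CPM in HG_1 to HG_5, from 108 to 165 counts against 60 to 122. The means were 3.46 ± 0.22 and 2.32 ± 0.419 CPM (SD, n = 5 each). With each array entered in the fit as a single summed feature, the beta sum was called lower, with a log2 fold change of -0.57 (SE 0.146, edgeR adjusted p = 0.0229). Of its rows, PCDHB2, PCDHB14 and PCDHB15 were tested. PCDHB2, of which 15.03% of the exonic bases overlap an antisense gene, was at 1.18 to 1.52 CPM in the control group and 0.649 to 1.07 CPM in high glucose, without overlap, and had a log2 fold change of -0.50 (SE 0.185, edgeR adjusted p = 0.1). PCDHB14 and PCDHB15 had log2 fold changes of -0.81 (SE 0.378) and -0.44 (SE 0.398), with edgeR adjusted p of 0.189 and 0.531. The genes known to choose and silence clustered promoters, among them CTCF, the cohesin subunits, SMCHD1, SETDB1 and DNMT3B, were 11 in number, and 11 were tested with 0 calls by edgeR, DESeq2 or limma on log2(FPKM + 1), 0 at an unadjusted p under 0.05 in edgeR, and log2 fold changes between -0.13 and 0.10.

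Of 13 listed cadherin-domain genes outside the rows described above, PCDH11X among them, 9 were tested, 5 were lower and 1 higher. Over all tested rows, 7.8% were called lower and 7.62% higher. The list was chosen with earlier results of these data known. CLSTN2, a calsyntenin of synaptic membranes, had the largest decrease of them, from 16.3 to 8.31 FPKM, with a log2 fold change of -0.99 (SE 0.0932, edgeR adjusted p = 0.000124). CELSR1 and CELSR2, the flamingo cadherins of planar cell polarity, had log2 fold changes of -0.41 (SE 0.0625) and -0.43 (SE 0.0711), with edgeR adjusted p of 0.00163 and 0.0023. CLSTN3 had a log2 fold change of -0.36 (SE 0.0788, edgeR adjusted p = 0.0108). CLSTN1, outside the naming rule, was lower as well, at -0.26 (SE 0.0433, edgeR adjusted p = 0.00234), and CDHR1, a photoreceptor cadherin also outside the rule at under 1 FPKM, was higher at 1.03 (SE 0.154, edgeR adjusted p = 0.00142). For these 5 lower genes all high glucose libraries were lower in CPM than all control libraries, which held for 6.91% of all tested rows.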

How the data were processed

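RNA of 5 control and 5 high glucose ARPE-19 libraries was sequenced. Read counts were deposited as whole numbers per gene, not normalised. A second deposited table held FPKM, scaled by the authors for the length of a transcript and the size of its library. The submitters' processing notes name fastp 0.20.1, HISAT2 2.2.1 and GRCh38 without their roles, and the counting program, its strand setting and the annotation are not given in the sources used here. Counts were tested with edgeR 4.0.16 (R 4.3.3) by the quasi-likelihood F test, with TMM scaling, the default filter on low counts (14936 of 22626 rows tested) and Benjamini-Hochberg adjustment over all tested rows, at an adjusted p under 0.05. SE is the standard error of the log2 fold change. The ratio of CDH2 to CDH1 was tested by exact permutation. Alternatives were DESeq2 1.42.0, other scalings and filters, limma 3.58.1 on log2(FPKM + 1) and log2(FPKM + 0.1), a lowess correction for GC content and length (span 0.3, 13538 rows with both values), summed arrays, and each library left out. On counts simulated for this comparison, edgeR recovered 83% of 100 genes changed by 1 on the log2 scale and 48% of 100 changed by 0.585, with 5 false calls among 14752 rows. The changed genes were drawn from rows above a minimum mean count, and no GC trend was simulated. With a GC trend put into the whole high glucose group, edgeR gave 3785 false calls among 13538 rows, and 12 after the GC and length correction.

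The genes named were members called with a fold change above 1.5, the 6 with the highest FPKM, CDH1 to CDH3, the 3 highest of each subfamily, and up to 4 called partners per list with a mean of at least 1 FPKM; others, among them PCDHGA12, PCDHGB2, DSC1, DSG1, FAT2, ADAM10, CTNNA1, ZEB1 and BEST1, were named after their values were seen. Members and lists were chosen with earlier results of these data known. Positions are from GENCODE 29 on GRCh38. Within each group, no 2 libraries agreed within sampling noise. Each library counted as 1 replicate, although this does not show that the libraries come from separate cultures.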

Additional observations from a re-analysis of the deposited data

Results flagged for a closer look

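Among 124 groups of 5 libraries examined (59 members with at least 50 counts in all, and the 3 summed arrays), 12 had 1 library set well apart from its neighbours, and about 6.2 would by chance. Of these, 4 lie in HG_1 and 7 in rows of the alpha and gamma arrays. CDH2 was at 327 CPM in HG_1 and at 392 to 397 CPM in the other high glucose libraries. CDH24 was at 42.0 CPM in HG_1 and at 34.4 to 36.2 CPM in the others. DSC3 was at 27.8 CPM in HG_1 and at 38.6 to 39.7 CPM in the others. PCDHB14 was at 0.152 CPM in HG_4 (5 counts) and at 0.304 to 0.364 CPM in the others. CDH17 was at 11 CPM in MG_3 and at 6.39 to 7.66 CPM in the other control libraries. PCDHGA8 was at 7.85 CPM in HG_2 and at 0.517 to 1.19 CPM in the others. PCDHGB6 was at 3.00 CPM in MG_1 and at 7.10 to 8.75 CPM in the other control libraries. PCDHA13 was at 2.31 CPM in HG_1 and had 0 counts in the other high glucose libraries. PCDHA9 was at 1.11 CPM in MG_3 against 0.0908 to 0.18 CPM in the other control libraries, and at 0.213 CPM in HG_4 (7 counts) against 0.13 to 0.152 CPM. PCDHA3 was at 2.48 CPM in MG_4 against 0 to 0.0303 CPM, and at 0.097 CPM in HG_2 (4 counts) against 0 to 0.0223 CPM.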

How the results depend on the processing

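The 7 calls were not equally stable. CDH11, DSC2, FAT1 and CDH24 were called lower in all 10 fits with 1 library left out, and of these CDH11, FAT1 and CDH24 in all 9 other settings. The number of members called lower was 5, and became 8 with DESeq2, 9 with the correction for GC content and length, 8 without HG_1 and MG_2, and 3 with limma on log2(FPKM + 1) and 3 on log2(FPKM + 0.1), which lost CDH2 and DSC2. With 1 library left out it was between 4 and 6. The number called higher was 2, and became 1 without a filter, 4 with the GC and length correction (CDH4 and PCDHA11 in addition), 0 and 0 with limma on both FPKM scales, and between 0 and 2 with 1 library left out (0 without HG_2, HG_3, HG_4, HG_5, MG_1, MG_2 or MG_4). CDH2 was not called with library size alone (edgeR adjusted p = 0.0608). Over all rows, 1138 were called higher and 1165 lower, and 2086 and 1797 with the GC and length correction. Counts over all rows in the other settings are not given here. The causes of these changes were not tested.

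The group difference (high glucose minus control) in the log2 ratio of CDH2 to CDH1 was -0.161 to 0.906 with 1 library left out. It was below 0 without HG_1 (-0.152) and without HG_4 (-0.161). A ratio of FPKM was not formed, and CDH1 is listed at 0 FPKM in some libraries. Members that were not called changed sign as follows. PCDHGC3 was at 0.00406 with the GC and length correction, 0.0294 without HG_1 and MG_2, and between -0.15 and 0.044 with 1 library left out; in the same fits DSG2 was between -0.10 and 0.0697, PCDHGB4 between -0.000128 and 0.15 and CDH3 between -0.40 and 0.16. With the arrays summed as single features, 1 of 3 (beta) was called lower (log2 fold change -0.57, edgeR adjusted p = 0.0229). No paired analysis was possible because the labels number the control libraries and letter the high glucose libraries. Low counts limit CDH1, CDH3, CDH13 and most alpha and beta rows.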
